A study of Mus musculus with 12 samples.

Results

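The 41 genes described here are collagen and stromal matrix genes: 14 collagen chains and 27 genes for the proteins that fold, cross-link, decorate, cut or respond to the collagen matrix, as connective tissue cells make them. They were found by gene symbol in a table of 54532 genes, where each of the 41 had 1 row. The list was drawn up with earlier results of these libraries known, including lower levels of stromal genes in 1 genotype, so the differences between genotypes are given for these genes with their SE and no p-value, and the counts of genes past the threshold in them stand only beside the share over all genes. The libraries came from mouse bone marrow-derived macrophages, grown from the marrow of tibias and femurs in DMEM medium with 10% serum, antibiotics (1%) and M-CSF, the macrophage growth factor, at 10 ng/ml, from mice at postnatal week 8. Hdac3f/f cells carry an Hdac3 gene, which encodes a histone deacetylase, flanked by loxP sites, and no Cre. Lyz2-Cre-Hdac3f/f cells (Lyz2-Cre below) carry the same floxed gene and Cre recombinase driven by the myeloid Lyz2 gene, so the deletion is driven in cells that use Lyz2. Each genotype was cultured for 4 h with 500 ng/ml LPS, a bacterial cell wall component that macrophages sense, or for 4 h without it. There were 3 libraries in each of the 4 groups, and nothing in the labels says whether these came from separate mice, so p-values measure the spread between these libraries only.

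Collagens are triple-helical proteins that fibroblasts and other mesenchymal cells secrete. Collagens I, III and V form fibrils, collagen VI forms beaded filaments, and collagen IV forms the network of basement membranes, which endothelial cells lay down. Inside the cell the chaperone Serpinh1 (HSP47) guards the folding helix, outside it the lysyl oxidases cross-link the fibrils, and small proteoglycans such as decorin set the spacing of fibrils. Platelet-derived growth factor receptors mark many of the cells that make this matrix. Macrophages are known mainly for clearing and remodelling matrix, and bone marrow holds stromal, endothelial and perivascular cells beside blood cells, some of which can adhere in a macrophage culture.

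Promoter sequence was available for 27 of the 41 genes in the RefSeq table for GRCm38.p6, and 3 are shown whose start is the same there as in the deposited gene positions and which hold different motifs. The sequences are the 150 bases before that start, 5′ to 3′ on the gene's strand, with every match of the motif named in capitals: TATAAA in Col3a1 (chr1:45311388-45311537, plus strand), GGGCGG, the letters that Sp1 factors recognise, in Col5a1 (chr2:27886275-27886424, plus strand) and CCAAT in Col16a1 (chr4:130047690-130047839, plus strand).
Col3a1: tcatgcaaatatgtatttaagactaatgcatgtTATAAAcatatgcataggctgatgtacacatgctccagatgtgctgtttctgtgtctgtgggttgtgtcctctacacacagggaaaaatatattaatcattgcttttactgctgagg
Col5a1: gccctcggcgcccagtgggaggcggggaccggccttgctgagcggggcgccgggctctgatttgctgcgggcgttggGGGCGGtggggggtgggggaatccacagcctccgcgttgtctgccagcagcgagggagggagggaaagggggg
Col16a1: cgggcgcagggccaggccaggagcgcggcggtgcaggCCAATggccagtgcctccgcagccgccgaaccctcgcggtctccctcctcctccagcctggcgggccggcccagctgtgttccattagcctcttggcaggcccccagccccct
The RefSeq start was the deposited one for 11 of the 27 genes and over 100 bases from it for 9, and for the 4 genes with more than 1 RefSeq start the first listed was used. Over the 250 bases before each RefSeq start and on both strands, GGGCGG was found in 16 of the 27 promoters (59.3%), against 32.9% of 27025 promoters of the same length. CCAAT was in 7 (25.9%, against 34.5%), TATAAA in 1 (3.7%, against 13.0%) and TGANTCA in 1 (3.7%, against 6.9%), and the CArG box, the site of serum response factor, in none (against 1.4%). No motif was common to all of these promoters, and the matches are a description of letters, with no binding measured.

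Counts summed to between 16553432 and 18706990 per library, of which the 41 genes took between 0.0197% and 0.386%. Levels are CPM, the counts per 1000000 counts of a library size scaled by TMM (trimmed mean of M values, which evens out differences in composition), given in the order of libraries 1, 2 and 3 of a group. A gene is said to be called, or to rise or fall, where its adjusted p over all tested genes was under 0.05 by the edgeR quasi-likelihood test. A count of 0 allows up to 3 counts, or between 0.160 and 0.181 CPM of the unscaled total, which covers counting error only. Csf1r, the receptor for the growth factor in the medium, lay between 1730.3 and 2446 CPM in all 12 libraries. The 10 macrophage markers listed summed to 15124, 16481 and 18536 CPM and 23386, 26537 and 24258 CPM in Hdac3f/f libraries, without and with LPS. In Lyz2-Cre libraries they summed to 6777, 11466 and 12108 CPM and 19435, 19690 and 21068 CPM. Most of the sum in untreated Hdac3f/f libraries was Lyz2, at 9318, 10171 and 11990 CPM. Lyz2, the gene that drives Cre, was lower in every Lyz2-Cre than in every Hdac3f/f library. These sums therefore do not compare the other markers between genotypes. The markers did not move as one: Csf1r was higher and Itgam lower in every untreated Lyz2-Cre than in every untreated Hdac3f/f library. Hdac3 lay between 33.1 and 40.7 CPM in all 12 libraries, a count over the whole gene that does not measure the deletion. Lyz2 was at 31.0 CPM in untreated Lyz2-Cre library 1 and at 5181 and 5637 CPM in libraries 2 and 3 of that group, and between 6090 and 12351 CPM in the other 3 groups, so this library stands apart from all others. Whether its cells or genotype differ from its label was not tested, and it is kept in every untreated Lyz2-Cre value as the labels place it. Untreated Hdac3f/f library 1 stands apart too: it was the highest of its group for 41 of 41 genes, by 1.65 to 5.49 times (median 3.19) over the next library. Because these libraries decide several counts, such results are given with and without them.

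Summed over the 41 genes, the level was 3060.4, 685 and 953 CPM in untreated and 2335, 2919 and 4077 CPM in LPS-treated Hdac3f/f libraries. In Lyz2-Cre libraries it was 169.8, 626 and 380.5 CPM without LPS and 839.9, 751 and 719 CPM with LPS. Every Lyz2-Cre library lay below every Hdac3f/f library of the same treatment, by the least for untreated Lyz2-Cre library 2 and untreated Hdac3f/f library 2. The 14 collagens alone summed to 2032, 420.2 and 625 CPM and 1196, 1673 and 2444 CPM in untreated and LPS-treated Hdac3f/f libraries, and to 32.9, 359 and 190.2 CPM and 85.1, 107 and 127 CPM in Lyz2-Cre libraries. In samples of whole cultures, fewer cells of a type and less RNA per cell cannot be told apart.

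**Figure D1:**
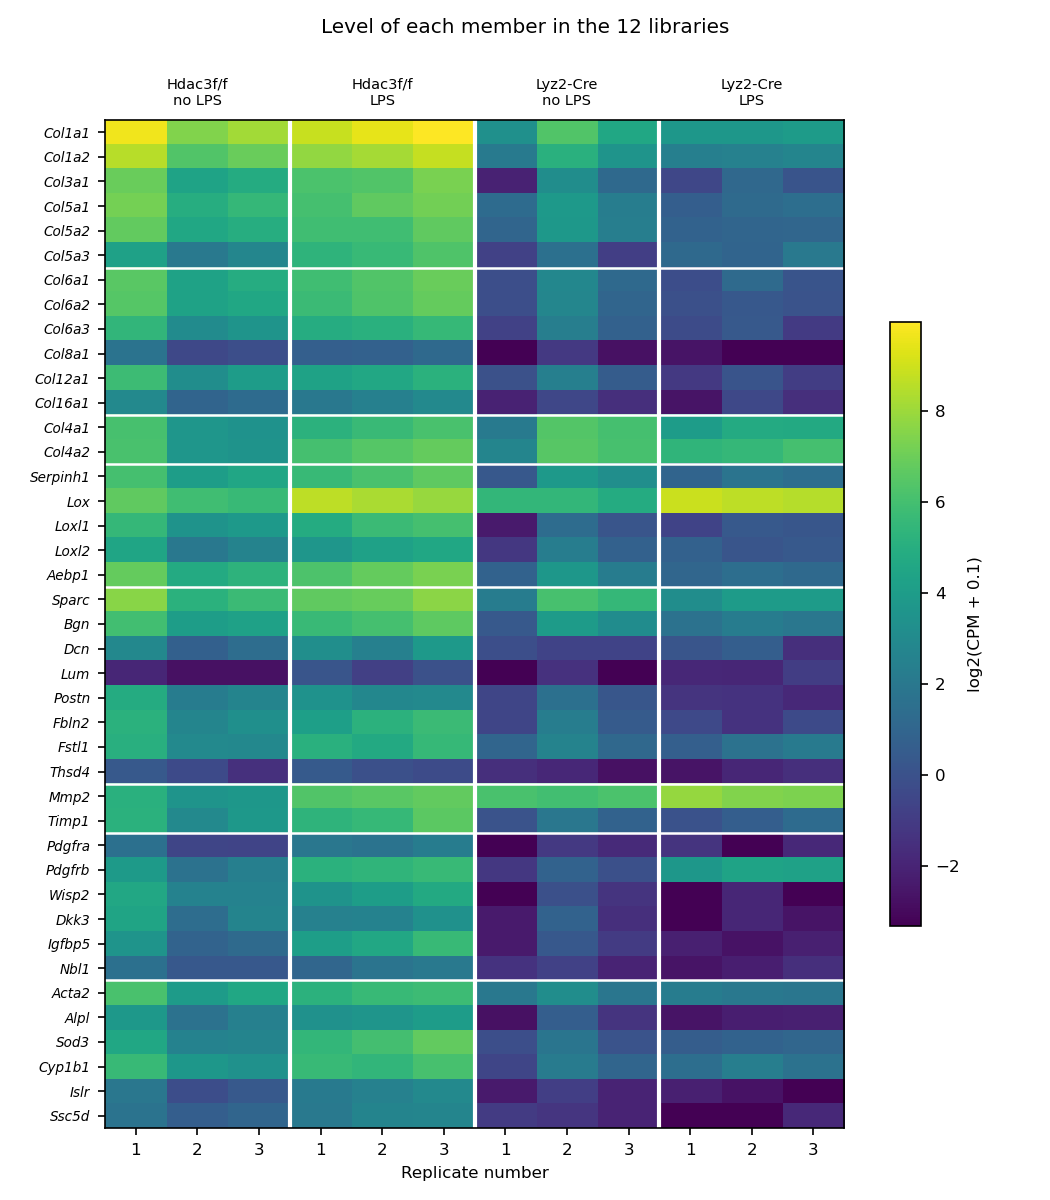
Level of each of the 41 genes (rows, grouped by role) in each library (columns, by group and replicate number), as log2(CPM + 0.1). Untreated Hdac3f/f library 1 is the brightest of its group in 41 of 41 rows, most rows are dark in Lyz2-Cre libraries, and Lox and Mmp2 stay bright there.

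Col1a1 and Col1a2 had the highest mean CPM of the 41 genes in Hdac3f/f cells with and without LPS, and the fibrillar collagens were low in Lyz2-Cre cells. Col1a1 (ENSMUSG00000001506, chr11:94936224-94953042, build mm10) was at 831, 174 and 283 CPM in untreated and 459, 718 and 1000.0 CPM in LPS-treated Hdac3f/f libraries, against 9.91, 82.3 and 24.0 CPM in untreated and 13.0, 12.8 and 15.4 CPM in LPS-treated Lyz2-Cre libraries. This gene encodes the α1 chain of collagen I, the main collagen of bone and skin. Every Lyz2-Cre library lay below every Hdac3f/f library, with no overlap under either treatment. The log2 difference of Lyz2-Cre from Hdac3f/f was -3.47 ± 0.70 (SE, n = 3 per group) without LPS and -5.72 ± 0.79 with LPS. Col1a2 was at 371, 80.7 and 123 CPM in untreated and 227, 291 and 447 CPM in LPS-treated Hdac3f/f libraries, against 4.13, 34.2 and 11.5 CPM in untreated and 5.19, 5.61 and 6.40 CPM in LPS-treated Lyz2-Cre libraries. It encodes the partner α2 chain, and its counts kept to those of Col1a1: the ratio of the 2 counts lay between 2.02 and 2.51 in all 12 libraries while the level of Col1a1 ranged over 101-fold.

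Col3a1 was at 122, 21.1 and 28.9 CPM in untreated and 72.5, 82.6 and 157 CPM in LPS-treated Hdac3f/f libraries, against 0.146, 8.99 and 2.24 CPM in untreated and 0.604, 2.14 and 1.00 CPM in LPS-treated Lyz2-Cre libraries. Col3a1 forms collagen III of extensible tissue, and untreated Lyz2-Cre library 1 held almost none of it. Col5a1 was at 146, 31.2 and 45.8 CPM in untreated and 65.2, 105 and 139 CPM in LPS-treated Hdac3f/f libraries, against 2.43, 14.0 and 4.88 CPM in untreated and 1.45, 2.31 and 2.70 CPM in LPS-treated Lyz2-Cre libraries. Col5a2 was at 111, 24.3 and 30.5 CPM in untreated and 59.8, 60.3 and 106 CPM in LPS-treated Hdac3f/f libraries, against 1.89, 13.6 and 5.02 CPM in untreated and 1.69, 1.91 and 2.01 CPM in LPS-treated Lyz2-Cre libraries. These encode the chains of collagen V, which starts fibrils of collagen I, and the groups of the 2 genotypes did not overlap for either chain. The log2 difference between genotypes with LPS was -5.58 ± 0.74 for Col5a1 and -5.33 ± 0.76 for Col5a2.

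Col5a3 was at 19.4, 3.99 and 6.70 CPM in untreated and 39.5, 50.0 and 79.3 CPM in LPS-treated Hdac3f/f libraries, against 0.486, 2.85 and 0.448 CPM in untreated and 2.23, 1.85 and 4.08 CPM in LPS-treated Lyz2-Cre libraries. Col5a3, the third collagen V chain, was the fibrillar chain that passed the test for LPS with all libraries included. It rose with LPS in Hdac3f/f cells, where all treated libraries lay above all untreated ones (log2 fold change 2.48 ± 0.57, adjusted p = 0.00219, edgeR quasi-likelihood test). In Lyz2-Cre cells the change was 1.06 ± 0.76 (adjusted p = 0.257), and 2.52 without untreated Lyz2-Cre library 2, where it was called (adjusted p = 0.0293, edgeR). The difference between the responses was not called (-1.42 ± 0.95, adjusted p = 0.414) and was 0.037 without untreated Lyz2-Cre library 2. Without the 2 libraries that stand apart it was called (-2.70, adjusted p = 0.0480, edgeR). No test set Col5a3 against the other chains, and without untreated Hdac3f/f library 1 Col1a1 was called higher with LPS as well (1.67, adjusted p = 0.037, edgeR), among 35 of the 40 tested genes.

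Collagen VI and the fibril-associated collagens were, like collagen I, lower in every Lyz2-Cre than in every Hdac3f/f library of the same treatment. Col6a1 was at 95.8, 19.9 and 30.1 CPM in untreated and 59.5, 81.2 and 121 CPM in LPS-treated Hdac3f/f libraries, against 0.826, 6.94 and 2.24 CPM in untreated and 0.785, 2.31 and 1.00 CPM in LPS-treated Lyz2-Cre libraries. Col6a2 was at 88.5, 20.3 and 24.0 CPM in untreated and 52.8, 78.7 and 114 CPM in LPS-treated Hdac3f/f libraries, against 0.826, 6.72 and 1.94 CPM in untreated and 0.845, 1.16 and 0.941 CPM in LPS-treated Lyz2-Cre libraries. Col6a3 was at 42.4, 8.32 and 11.7 CPM in untreated and 29.6, 34.0 and 48.3 CPM in LPS-treated Hdac3f/f libraries, against 0.486, 5.03 and 1.64 CPM in untreated and 0.724, 1.21 and 0.376 CPM in LPS-treated Lyz2-Cre libraries. These 3 genes encode the chains of the collagen VI filament, and in Lyz2-Cre cells none reached the lowest Hdac3f/f library of the same treatment. The differences between genotypes with LPS were -5.98 ± 0.80, -6.37 ± 0.81 and -5.57 ± 0.82 on the log2 scale. Col12a1 was at 56.0, 9.10 and 15.9 CPM in untreated and 20.4, 25.2 and 36.2 CPM in LPS-treated Hdac3f/f libraries, against 0.875, 5.29 and 1.34 CPM in untreated and 0.362, 0.982 and 0.439 CPM in LPS-treated Lyz2-Cre libraries. Col12a1 encodes a collagen that sits on the surface of fibrils. Col16a1 was at 7.55, 1.85 and 2.40 CPM in untreated and 3.89, 5.46 and 7.55 CPM in LPS-treated Hdac3f/f libraries, against 0.146, 0.623 and 0.249 CPM in untreated and 0.0604, 0.636 and 0.251 CPM in LPS-treated Lyz2-Cre libraries. Col16a1 is another fibril-associated collagen, and its level was at most 7.55 CPM in any library.

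Col8a1 was at 3.21, 0.633 and 0.818 CPM in untreated and 1.53, 1.64 and 2.25 CPM in LPS-treated Hdac3f/f libraries, against 0, 0.356 and 0.0497 CPM in untreated and 0.0604, 0 and 0 CPM in LPS-treated Lyz2-Cre libraries. Col8a1 encodes a chain of collagen VIII, a short-chain collagen of vessel walls and corneal membranes, and 1 count was left in all LPS-treated Lyz2-Cre libraries together. Its summed level with LPS was 89.9-fold (exact 95% interval 15.6 to 3599) higher in Hdac3f/f than in Lyz2-Cre cells, an interval that covers counting error only.

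The 2 collagen IV genes did not share this pattern. Col4a1 (ENSMUSG00000031502, chr8:11198423-11312826) was at 68.8, 12.6 and 10.8 CPM in untreated and 37.5, 51.0 and 71.1 CPM in LPS-treated Hdac3f/f libraries, against 4.23, 86.2 and 67.0 CPM in untreated and 16.1, 27.9 and 26.7 CPM in LPS-treated Lyz2-Cre libraries. Col4a2 (ENSMUSG00000031503, chr8:11312805-11449287) was at 69.7, 12.7 and 11.0 CPM in untreated and 67.1, 88.2 and 114 CPM in LPS-treated Hdac3f/f libraries, against 6.56, 91.8 and 67.6 CPM in untreated and 42.0, 46.6 and 65.5 CPM in LPS-treated Lyz2-Cre libraries. They encode the chains of the basement membrane network and lie head to head on chromosome 8, with annotated starts that overlap by 22 bases. Untreated Lyz2-Cre libraries 2 and 3 lay among the highest for both genes and library 1 lay lowest, so the groups of the 2 genotypes overlapped without LPS. The log2 difference between genotypes without LPS was 0.77 ± 0.81 for Col4a1 and 0.82 ± 0.76 for Col4a2. With LPS both were lower in every Lyz2-Cre library, by a log2 difference of -1.18 ± 0.83 and -0.80 ± 0.76. The count ratio of Col4a2 to Col4a1 was 1.01, 1.01 and 1.02 in untreated and 1.79, 1.73 and 1.60 in LPS-treated Hdac3f/f libraries, and 1.55, 1.07 and 1.01 and 2.62, 1.67 and 2.46 in Lyz2-Cre libraries, so the LPS-treated libraries held more of Col4a2 for each Col4a1 count.

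Of the endothelial marker genes, Cdh5 and Emcn, picked after their values were seen, had the same high and low untreated libraries as collagen IV. Cdh5 was at 20.4, 2.24 and 1.18 CPM in untreated and 6.25, 5.53 and 12.4 CPM in LPS-treated Hdac3f/f libraries, against 2.14, 32.4 and 24.8 CPM in untreated and 5.98, 9.30 and 9.28 CPM in LPS-treated Lyz2-Cre libraries. Cdh5 encodes the cadherin of endothelial junctions. Emcn was at 6.33, 0.730 and 0.153 CPM in untreated and 0.903, 0.780 and 1.74 CPM in LPS-treated Hdac3f/f libraries, against 0.389, 13.1 and 11.1 CPM in untreated and 2.35, 3.99 and 3.51 CPM in LPS-treated Lyz2-Cre libraries. Emcn encodes the sialomucin endomucin of sinusoidal and venous endothelium. Like Col4a1, both were high in untreated Hdac3f/f library 1 and in untreated Lyz2-Cre libraries 2 and 3, and low in the other 3 untreated libraries. With LPS the likeness ended: collagen IV was lower in every Lyz2-Cre library, Emcn was higher in every one, and Cdh5 overlapped between genotypes. Over the 9 endothelial markers listed, the sum was 129, 88.9 and 67.5 CPM and 131, 121 and 144 CPM in Hdac3f/f and 194, 229.7 and 168 CPM and 157, 119.7 and 156 CPM in Lyz2-Cre libraries, without and with LPS, and no marker was at 0 throughout. The markers did not move as one. Vwf was at 90.4 CPM in untreated Lyz2-Cre library 1 and at most at 37.6 CPM in the other two, against 34.7, 51.8 and 34.5 CPM in untreated Hdac3f/f libraries. Kdr, Pecam1 and Esam lay in all untreated Lyz2-Cre libraries, library 1 included, above every untreated Hdac3f/f library, with Kdr at 70.4, 82.1 and 50.5 against 32.1, 21.4 and 19.3 CPM. The part that endothelial cells have in the collagen IV levels was not tested.

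**Figure D2:**
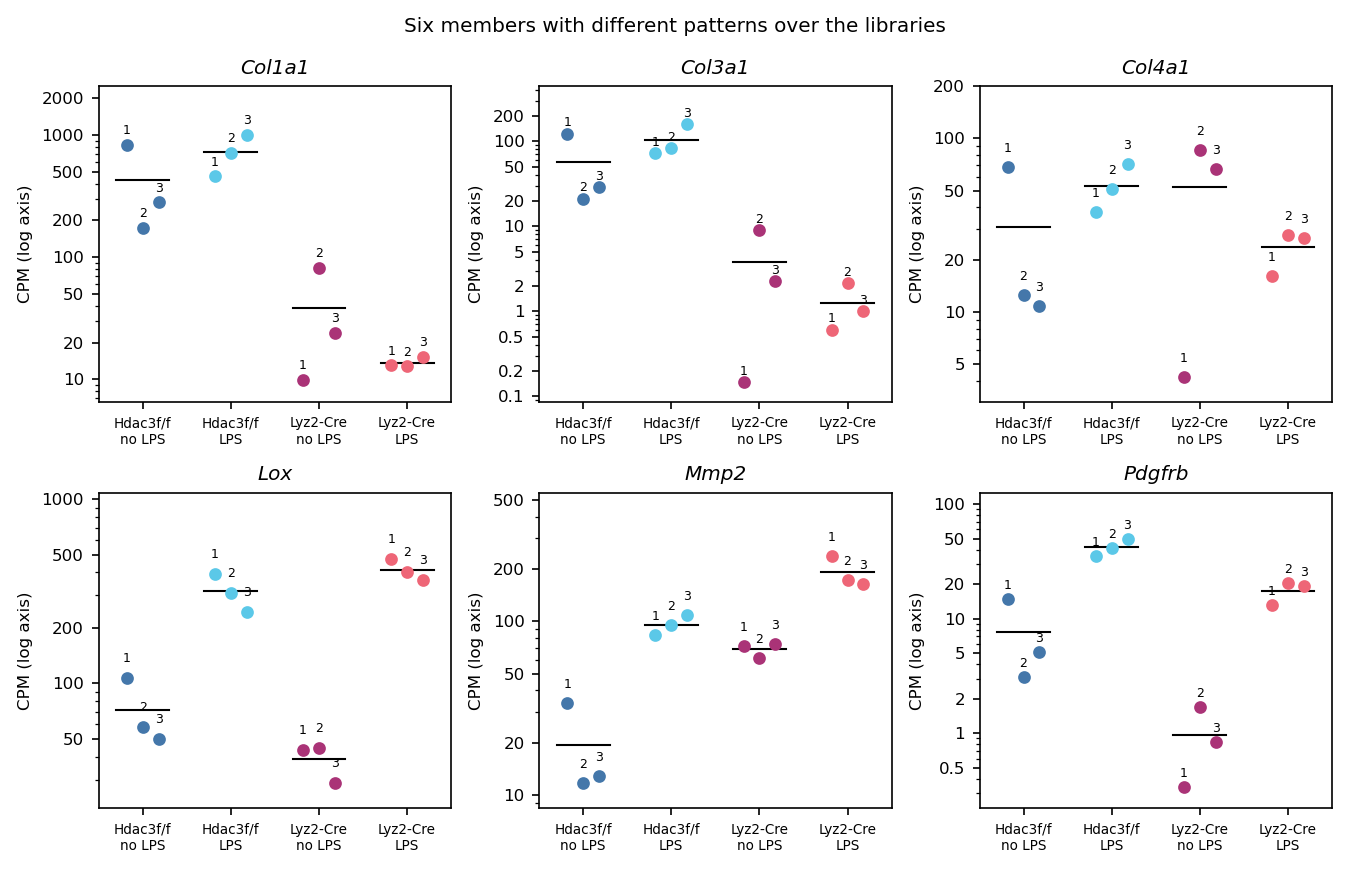
CPM on a log axis for 6 genes in each of the 4 groups, with 1 point per library, its replicate number beside it, and the arithmetic mean as a line. Col1a1 and Col3a1 are lower in every Lyz2-Cre library, Col4a1 is as high in 2 untreated Lyz2-Cre libraries as in Hdac3f/f cells, and Lox, Mmp2 and Pdgfrb are higher in every LPS-treated library than in the untreated ones of the same genotype.

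Among the genes for assembly and cross-linking, Lox kept a high level in Lyz2-Cre cells, unlike the other 4. Lox (ENSMUSG00000024529, chr18:52516069-52529867) was at 107, 58.2 and 49.9 CPM in untreated and 394, 310.2 and 243 CPM in LPS-treated Hdac3f/f libraries, against 43.8, 44.6 and 29.0 CPM in untreated and 472, 403 and 364 CPM in LPS-treated Lyz2-Cre libraries. Lox encodes lysyl oxidase, the copper enzyme that starts cross-links between collagen and elastin chains. It rose with LPS in both genotypes with no overlap of treated and untreated libraries: by 2.14 ± 0.28 in Hdac3f/f cells (adjusted p = 1.98e-05) and by 3.40 ± 0.29 in Lyz2-Cre cells (adjusted p = 6.35e-07, edgeR, log2 scale). The difference between these responses was 1.26 ± 0.38 (adjusted p = 0.0596). It missed the threshold here and passed it with DESeq2 (1.24, adjusted p = 0.0109), with library totals (1.53, adjusted p = 0.0434) and in 4 other settings. The log2 difference of Lyz2-Cre from Hdac3f/f was -0.88 ± 0.27 without LPS and 0.39 ± 0.26 with LPS, where the libraries of the genotypes overlapped.

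Loxl1 and Loxl2, paralogs of Lox, had lower mean levels in Lyz2-Cre cells. Loxl1 was at 46.2, 11.2 and 14.6 CPM in untreated and 28.9, 53.6 and 65.7 CPM in LPS-treated Hdac3f/f libraries, against 0.0972, 2.49 and 1.04 CPM in untreated and 0.543, 1.21 and 1.07 CPM in LPS-treated Lyz2-Cre libraries. Loxl2 was at 22.2, 3.94 and 6.14 CPM in untreated and 12.5, 19.4 and 24.2 CPM in LPS-treated Hdac3f/f libraries, against 0.340, 4.80 and 1.64 CPM in untreated and 1.63, 1.04 and 1.19 CPM in LPS-treated Lyz2-Cre libraries. Loxl1 acts mainly on elastic fibres, and Loxl2 cross-links collagen IV. Only untreated Lyz2-Cre library 2 overlapped the Hdac3f/f range of its treatment, for Loxl2. Neither was called for an LPS response in Hdac3f/f cells with all libraries included (log2 fold change 1.04 ± 0.55, adjusted p = 0.123, and 0.79 ± 0.64, adjusted p = 0.308). Without untreated Hdac3f/f library 1 both were called higher (1.94, adjusted p = 0.00510, and 1.89, adjusted p = 0.0169, edgeR). Serpinh1 was at 65.0, 16.5 and 23.5 CPM in untreated and 49.1, 70.5 and 102 CPM in LPS-treated Hdac3f/f libraries, against 1.17, 14.0 and 9.35 CPM in untreated and 1.87, 3.35 and 2.70 CPM in LPS-treated Lyz2-Cre libraries. Serpinh1 is the chaperone of procollagen, and its groups did not overlap between genotypes. Aebp1 was at 112, 27.4 and 38.1 CPM in untreated and 77.2, 112 and 156 CPM in LPS-treated Hdac3f/f libraries, against 1.70, 12.8 and 4.63 CPM in untreated and 1.99, 2.66 and 2.26 CPM in LPS-treated Lyz2-Cre libraries. Aebp1 encodes a secreted protein that binds collagen fibrils and is needed for their order, and its level was -5.64 ± 0.73 (log2) in Lyz2-Cre relative to Hdac3f/f cells with LPS.

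Among the secreted glycoproteins and proteoglycans Sparc had the highest mean CPM in each of the 4 groups. Sparc (ENSMUSG00000018593, chr11:55394500-55423183) was at 193, 35.9 and 53.6 CPM in untreated and 105, 118 and 204 CPM in LPS-treated Hdac3f/f libraries, against 4.66, 67.5 and 45.3 CPM in untreated and 8.99, 15.6 and 15.6 CPM in LPS-treated Lyz2-Cre libraries. Sparc (osteonectin) binds collagen and mineral and is made by bone, stromal and endothelial cells. Untreated Lyz2-Cre libraries 2 and 3 overlapped the untreated Hdac3f/f range, whereas with LPS all Lyz2-Cre libraries were lower (log2 difference -3.41 ± 0.80, against -1.27 ± 0.73 without LPS, which was 0.32 without the 2 libraries that stand apart). Bgn was at 61.4, 16.5 and 19.6 CPM in untreated and 50.7, 66.2 and 101 CPM in LPS-treated Hdac3f/f libraries, against 1.21, 15.4 and 8.81 CPM in untreated and 3.14, 4.74 and 3.76 CPM in LPS-treated Lyz2-Cre libraries. Bgn encodes biglycan, a small leucine-rich proteoglycan that binds collagen. Dcn was at 7.24, 1.61 and 2.61 CPM in untreated and 9.31, 5.46 and 13.9 CPM in LPS-treated Hdac3f/f libraries, against 0.826, 0.534 and 0.547 CPM in untreated and 1.03, 1.44 and 0.251 CPM in LPS-treated Lyz2-Cre libraries. Dcn encodes decorin, its relative. Dcn was called higher with LPS in Hdac3f/f cells (1.31 ± 0.52, adjusted p = 0.0453, edgeR) although 1 untreated library overlapped the treated ones, and the call was lost without untreated library 2 (adjusted p = 0.147) and in 9 other settings.

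Lum was at 0.173, 0.0487 and 0.0511 CPM in untreated and 1.04, 0.468 and 0.871 CPM in LPS-treated Hdac3f/f libraries, against 0, 0.267 and 0 CPM in untreated and 0.181, 0.173 and 0.439 CPM in LPS-treated Lyz2-Cre libraries. Lum, which encodes lumican and lies 47.0 kb from Dcn, had too few counts to be tested. Postn was at 29.0, 4.67 and 6.39 CPM in untreated and 10.7, 6.94 and 7.40 CPM in LPS-treated Hdac3f/f libraries, against 0.583, 2.85 and 1.09 CPM in untreated and 0.302, 0.289 and 0.188 CPM in LPS-treated Lyz2-Cre libraries. Postn encodes periostin, which links collagen to cells in bone surfaces and healing tissue. It was the only one of the 40 tested genes called lower with LPS in Lyz2-Cre cells (-2.52 ± 0.97, adjusted p = 0.0433, edgeR). That call rested on few counts and was lost without any 1 of 8 libraries, with an adjusted p of 0.22 without untreated Lyz2-Cre library 2. Fbln2 was at 36.2, 6.47 and 9.61 CPM in untreated and 17.7, 37.3 and 52.8 CPM in LPS-treated Hdac3f/f libraries, against 0.583, 4.85 and 1.29 CPM in untreated and 0.664, 0.289 and 0.690 CPM in LPS-treated Lyz2-Cre libraries. Fstl1 was at 33.0, 7.50 and 7.26 CPM in untreated and 34.3, 26.4 and 47.2 CPM in LPS-treated Hdac3f/f libraries, against 1.94, 6.05 and 2.14 CPM in untreated and 1.51, 3.06 and 4.39 CPM in LPS-treated Lyz2-Cre libraries. Fbln2 encodes fibulin 2 of elastic and basement membrane matrix, and Fstl1 a secreted relative of follistatin and Sparc. Thsd4 was at 1.21, 0.681 and 0.256 CPM in untreated and 1.25, 0.857 and 0.726 CPM in LPS-treated Hdac3f/f libraries, against 0.243, 0.178 and 0.0497 CPM in untreated and 0.0604, 0.173 and 0.251 CPM in LPS-treated Lyz2-Cre libraries. Thsd4, which encodes an ADAMTS-like protein of fibrillin microfibrils, was near the detection limit in Lyz2-Cre libraries.

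The matrix protease Mmp2 and the inhibitor Timp1 diverged. Mmp2 (ENSMUSG00000031740, chr8:92827291-92853420) was at 34.0, 11.7 and 12.8 CPM in untreated and 83.1, 94.8 and 109 CPM in LPS-treated Hdac3f/f libraries, against 72.0, 61.3 and 74.3 CPM in untreated and 237, 173 and 164 CPM in LPS-treated Lyz2-Cre libraries. Mmp2 encodes gelatinase A, which cuts denatured collagen and collagen IV. It was the only one of the 41 genes higher in every Lyz2-Cre library than in every Hdac3f/f library of the same treatment, with a log2 difference of 1.82 ± 0.32 without LPS and 1.00 ± 0.31 with LPS. It rose with LPS in both genotypes, by 2.29 ± 0.33 in Hdac3f/f cells (adjusted p = 5.09e-05) and 1.47 ± 0.31 in Lyz2-Cre cells (adjusted p = 0.00157, edgeR). Untreated Lyz2-Cre library 1, which was lowest for most of these genes, was not low for Mmp2.

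Timp1 (ENSMUSG00000001131, chrX:20870166-20874735) was at 36.4, 7.64 and 13.2 CPM in untreated and 39.9, 48.4 and 97.6 CPM in LPS-treated Hdac3f/f libraries, against 0.972, 3.78 and 1.74 CPM in untreated and 0.905, 1.44 and 2.45 CPM in LPS-treated Lyz2-Cre libraries. Timp1 encodes a secreted inhibitor of matrix metalloproteinases. With LPS its level rose in Hdac3f/f cells (1.69 ± 0.53, adjusted p = 0.0143, edgeR), where all treated libraries lay above all untreated ones. The call was lost with library totals (adjusted p = 0.124) and without untreated library 2 or 3 or treated library 3. In Lyz2-Cre cells the change was -0.46 ± 0.74 (adjusted p = 0.627), and 0.23 without untreated library 2. Timp1 lies within Syn1 on the other strand, and whether counting used strand is not given in the sources used here. Syn1 lay between 10.7 and 26.9 CPM and was highest in untreated Lyz2-Cre library 1, where Timp1 was among its lowest.

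Of the growth factor receptors, Pdgfrb kept its LPS response in Lyz2-Cre cells. Pdgfrb (ENSMUSG00000024620, chr18:61045150-61085061) was at 14.9, 3.11 and 5.16 CPM in untreated and 35.4, 41.7 and 49.2 CPM in LPS-treated Hdac3f/f libraries, against 0.340, 1.69 and 0.846 CPM in untreated and 13.2, 20.5 and 19.1 CPM in LPS-treated Lyz2-Cre libraries. Pdgfrb encodes the β receptor for platelet-derived growth factor, a marker of pericytes and stromal cells. It rose with LPS by 2.44 ± 0.47 in Hdac3f/f cells (adjusted p = 0.000532) and by 4.17 ± 0.57 in Lyz2-Cre cells (adjusted p = 4.51e-05, edgeR), with no overlap in either. The difference between the responses was 1.73 ± 0.73 (adjusted p = 0.175) and was not called. Its log2 difference between genotypes was -2.99 ± 0.58 without LPS and -1.26 ± 0.44 with LPS. Pdgfra was at 2.86, 0.584 and 0.563 CPM in untreated and 3.75, 3.20 and 4.64 CPM in LPS-treated Hdac3f/f libraries, against 0, 0.356 and 0.199 CPM in untreated and 0.302, 0 and 0.188 CPM in LPS-treated Lyz2-Cre libraries. Pdgfra encodes the α receptor of fibroblasts and mesenchymal progenitors, and it was close to the detection limit in Lyz2-Cre libraries under both treatments.

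Secreted ligands and their antagonists were nearly absent from LPS-treated Lyz2-Cre cells. Igfbp5 (ENSMUSG00000026185, chr1:72857932-72874884) was at 11.5, 1.75 and 2.35 CPM in untreated and 17.6, 24.9 and 50.3 CPM in LPS-treated Hdac3f/f libraries, against 0.0972, 1.16 and 0.398 CPM in untreated and 0.121, 0.0578 and 0.125 CPM in LPS-treated Lyz2-Cre libraries. Igfbp5 encodes a binding protein of insulin-like growth factors, made by bone cells and fibroblasts. It was higher with LPS in Hdac3f/f cells (2.56 ± 0.63, adjusted p = 0.00344, edgeR). Igfbp5 had the most negative fitted difference between genotypes with LPS among the 40 genes tested, -8.17 ± 1.04. The difference between its responses was -4.97 ± 1.57 (adjusted p = 0.0733). It passed the threshold in 5 other settings, among them DESeq2 (-5.07, adjusted p = 0.00740) and without untreated Hdac3f/f library 1 (-6.32, adjusted p = 0.00535, edgeR). Wisp2 was at 25.3, 5.79 and 5.93 CPM in untreated and 11.0, 16.8 and 26.8 CPM in LPS-treated Hdac3f/f libraries, against 0, 0.845 and 0.298 CPM in untreated and 0, 0.173 and 0 CPM in LPS-treated Lyz2-Cre libraries. Wisp2 encodes a secreted CCN protein of the Wnt pathway, and its summed level with LPS was 301-fold (exact 95% interval 103 to 1465) higher in Hdac3f/f cells. That interval covers counting error only.

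Dkk3 was at 21.5, 2.63 and 6.34 CPM in untreated and 5.56, 5.85 and 10.4 CPM in LPS-treated Hdac3f/f libraries, against 0.0972, 1.69 and 0.249 CPM in untreated and 0, 0.173 and 0.0627 CPM in LPS-treated Lyz2-Cre libraries. Dkk3 encodes a member of the dickkopf family of secreted Wnt modulators, and untreated Hdac3f/f library 1 was far above the other 2 of its group. Nbl1 was at 2.95, 1.17 and 1.18 CPM in untreated and 2.02, 3.35 and 3.99 CPM in LPS-treated Hdac3f/f libraries, against 0.292, 0.489 and 0.149 CPM in untreated and 0.0604, 0.116 and 0.251 CPM in LPS-treated Lyz2-Cre libraries. Nbl1 encodes a secreted antagonist of bone morphogenetic proteins. For both genes every Lyz2-Cre library lay below every Hdac3f/f library of the same treatment.

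The remaining genes stand for cell state and enzymes of stromal cells. Acta2 was at 70.0, 15.8 and 23.9 CPM in untreated and 37.5, 49.6 and 56.0 CPM in LPS-treated Hdac3f/f libraries, against 3.94, 8.99 and 3.68 CPM in untreated and 4.77, 3.87 and 3.57 CPM in LPS-treated Lyz2-Cre libraries. Acta2 encodes smooth muscle actin of myofibroblasts and vessel walls, and its levels with and without LPS overlapped in Lyz2-Cre cells (log2 fold change -0.45 ± 0.52, adjusted p = 0.497, edgeR, and 0.098 without untreated Lyz2-Cre library 2). Alpl was at 13.6, 3.16 and 5.42 CPM in untreated and 10.3, 12.2 and 16.0 CPM in LPS-treated Hdac3f/f libraries, against 0.0486, 1.47 and 0.298 CPM in untreated and 0.0604, 0.116 and 0.125 CPM in LPS-treated Lyz2-Cre libraries. Alpl encodes tissue-nonspecific alkaline phosphatase of osteoblasts and stromal cells. Sod3 was at 23.9, 5.94 and 6.29 CPM in untreated and 43.8, 62.9 and 107 CPM in LPS-treated Hdac3f/f libraries, against 0.826, 3.51 and 0.945 CPM in untreated and 1.39, 1.73 and 2.01 CPM in LPS-treated Lyz2-Cre libraries. Sod3 encodes extracellular superoxide dismutase, which binds to matrix, and it rose with LPS in Hdac3f/f cells (2.56 ± 0.55, adjusted p = 0.00124, edgeR) with no overlap. In Lyz2-Cre cells the change of Sod3 was -0.07 ± 0.74 (adjusted p = 0.944), with 0.94 without untreated library 2 and 0.087 without treated library 1. The difference between the responses was -2.63 ± 0.91 (adjusted p = 0.0993). It was called without untreated Hdac3f/f library 1 (-3.61, adjusted p = 0.00876) and without the 2 libraries that stand apart (-3.93, adjusted p = 0.00389, edgeR). Cyp1b1 was at 50.3, 13.1 and 10.4 CPM in untreated and 49.3, 43.0 and 68.6 CPM in LPS-treated Hdac3f/f libraries, against 0.583, 4.49 and 1.94 CPM in untreated and 2.66, 5.03 and 3.07 CPM in LPS-treated Lyz2-Cre libraries. Cyp1b1 encodes a cytochrome P450 that acts on steroids and xenobiotics.

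Islr was at 3.77, 0.779 and 1.23 CPM in untreated and 4.38, 5.69 and 7.47 CPM in LPS-treated Hdac3f/f libraries, against 0.0972, 0.445 and 0.149 CPM in untreated and 0.121, 0.0578 and 0 CPM in LPS-treated Lyz2-Cre libraries. Islr encodes a leucine-rich membrane protein of mesenchymal stromal cells. Its level was higher with LPS in Hdac3f/f cells (1.58 ± 0.52, adjusted p = 0.0178, edgeR) with no overlap, a call lost with library totals (adjusted p = 0.157) and without untreated library 2 or 3 or treated library 3. Its summed level with LPS was 96.8-fold (exact 95% interval 32.7 to 473) higher in Hdac3f/f than in Lyz2-Cre cells. Ssc5d (ENSMUSG00000035279, chr7:4925785-4944826) was at 3.21, 1.46 and 1.94 CPM in untreated and 4.03, 6.31 and 6.53 CPM in LPS-treated Hdac3f/f libraries, against 0.389, 0.311 and 0.149 CPM in untreated and 0, 0 and 0.188 CPM in LPS-treated Lyz2-Cre libraries. Ssc5d encodes a soluble scavenger receptor protein. Hdac3f/f cells held more of it with LPS (1.34 ± 0.41, adjusted p = 0.0131), a call lost with library totals (adjusted p = 0.173) and without untreated library 2 (adjusted p = 0.0566). In Lyz2-Cre cells the change was -2.11 ± 0.90 (adjusted p = 0.0647), with 3 counts left over the LPS-treated libraries, and the ratio with LPS was 92.8-fold (exact 95% interval 31.3 to 453). The exact intervals of Islr and Ssc5d cover counting error only.

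Counted over the 40 genes tested, 31 were lower and 1 (Mmp2) higher in Lyz2-Cre cells without LPS, where 6.66% and 5.12% of all 14286 tested genes were called lower and higher. With LPS 36 were lower and 1 (Mmp2) higher, against 16.9% and 15.7% of all tested genes, and Col4a1, Col4a2 and Lox were not called. These counts describe how the list was drawn and support nothing further. Without LPS the count of lower genes was 26 without untreated Hdac3f/f library 1, 23 without untreated Lyz2-Cre library 1, 17 without untreated Lyz2-Cre library 3, and 5 without Lyz2-Cre libraries 1 and 2 together. With LPS it stayed between 34 and 36 when any 1 library was left out. The call of Mmp2 as higher with LPS was lost without any 1 treated Hdac3f/f library and without treated Lyz2-Cre library 1 or 2. By overlap, 35 of the 41 genes lay below in every untreated Lyz2-Cre library and 39 in every LPS-treated one, where 16.5% and 22.7% of all tested genes did so. Mmp2 alone lay above in every library of both treatments, as did 20.0% of all tested genes without LPS and 20.5% with LPS.

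How LPS acted on these genes was asked in each genotype. In Hdac3f/f cells 10 of 40 rose, namely Col5a3, Dcn, Igfbp5, Islr, Lox, Mmp2, Pdgfrb, Sod3, Ssc5d and Timp1, while 28.0% of all tested genes were called higher, so this share is near the background. By edgeR none was lower, at an unadjusted p under 0.05 none either, and by DESeq2 none, where 32.1% of all tested genes were called lower by edgeR. The median log2 fold change was 0.87 over the 40 genes and -0.08 over all tested genes. Untreated Hdac3f/f library 1 decides the count: without it 35 of 40 were called higher. In Lyz2-Cre cells 3 rose (Lox, Mmp2 and Pdgfrb, against 25.2% of all tested genes) and 1 fell (Postn, against 27.7%), with a median of -1.38 against -0.08. Without untreated Lyz2-Cre library 1 the number that fell was 13, without untreated Hdac3f/f library 1 it was 11, and without both it was 23. These contrasts share libraries with the differences between genotypes that were in view when the list was drawn up.

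Whether the LPS response differed between genotypes was tested by the interaction. It equals the genotype difference with LPS minus that without, and these were in view when the list was drawn up. Its p-values for these genes are thus no independent support for a difference. By edgeR 1 of 40 genes was called, Ssc5d, with a response lower in Lyz2-Cre cells by -3.45 ± 0.98 (adjusted p = 0.0489), where 5.54% of all tested genes were called lower. None was called higher by edgeR, 2 were higher at an unadjusted p under 0.05, and DESeq2 called 1 higher (2.58% of all tested genes were called higher by edgeR). The Ssc5d call was lost in 13 other settings, library totals and the leaving out of most single libraries among them, so the call rests on the settings used. The count of lower genes was 22 without untreated Hdac3f/f library 1 and 32 without that library and untreated Lyz2-Cre library 1 together. Islr (-3.44 ± 1.24, adjusted p = 0.113) and Alpl (-3.34 ± 1.32, adjusted p = 0.148) had fitted differences of similar size that did not pass the threshold here. Islr passed it in 4 other settings, DESeq2 among them (-3.59, adjusted p = 0.0262). Alpl passed it in 3, among them without untreated Hdac3f/f library 1 (-4.12, adjusted p = 0.0411, edgeR). The fitted difference of Igfbp5, given above, was larger and passed in 5.

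**Figure D3:**
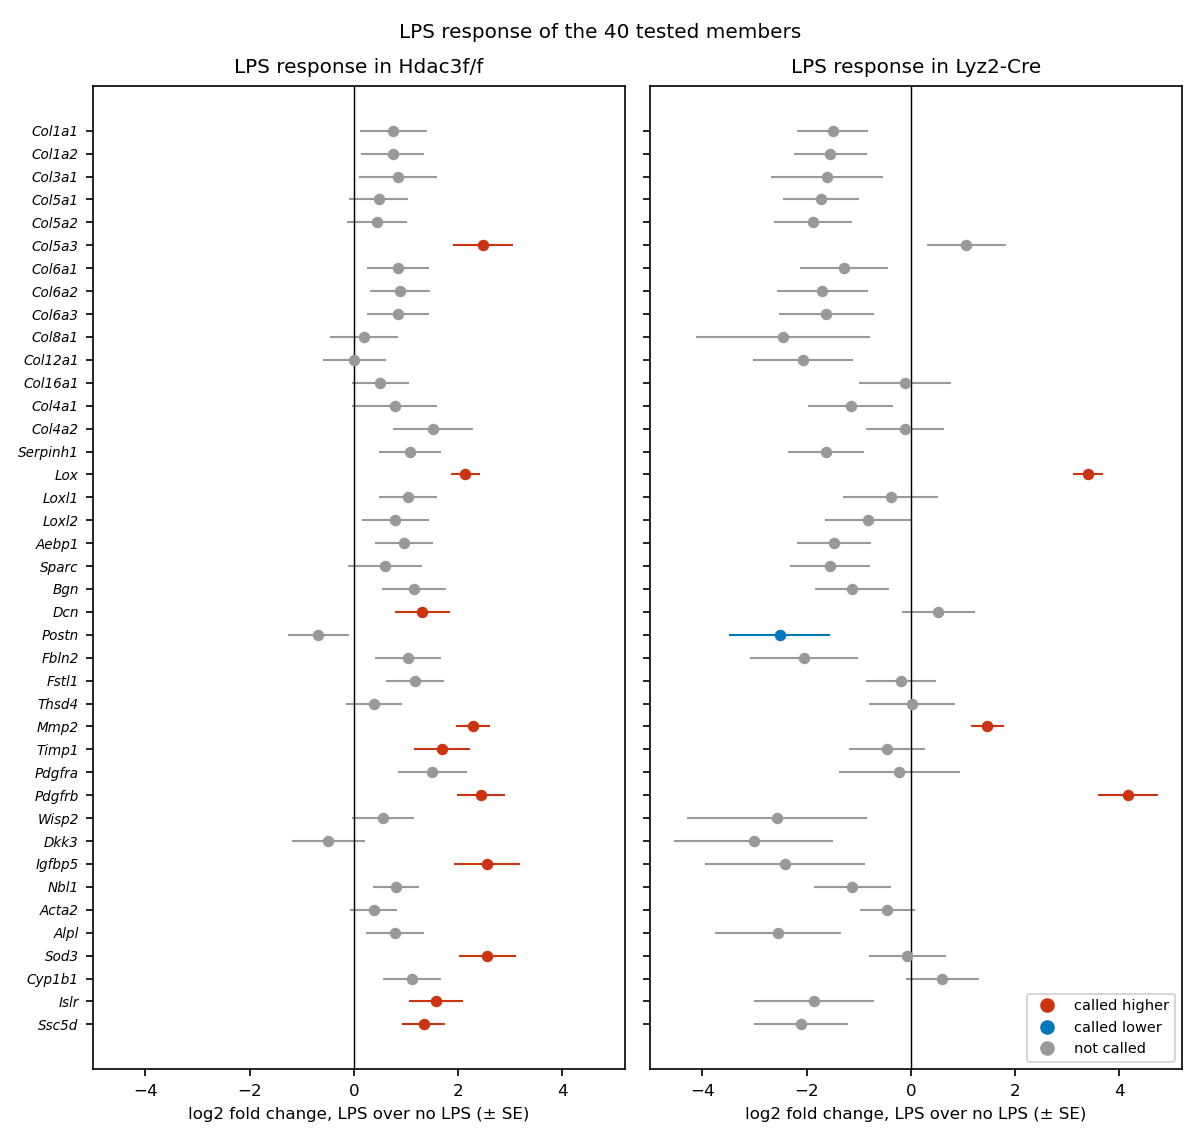
Fitted log2 fold change of each of the 40 tested genes with LPS, with its SE as a bar, in Hdac3f/f cells (left) and Lyz2-Cre cells (right); colour gives the edgeR call. In Hdac3f/f cells 38 of the 40 points lie to the right of 0 and 10 are called higher, and in Lyz2-Cre cells Lox, Mmp2 and Pdgfrb are called higher and Postn lower.

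Setting each gene against collagen I in the same library showed which genes kept to it. Per 1000 counts of Col1a1 and Col1a2 together, Aebp1 lay between 93.5 and 144, Col5a1 between 79.5 and 173 and Col6a2 between 43.2 and 80.0 over the 12 libraries, so these genes varied at most 2.18-fold relative to collagen I. Col6a1, Col6a3, Col12a1 and Col16a1 varied 2.91-fold, 3.81-fold, 3.13-fold and 10.4-fold, with few counts in Lyz2-Cre libraries. Lox ran from 89.1 to 25911 per 1000 and was at 25911, 21865 and 16709 in LPS-treated Lyz2-Cre libraries. Mmp2 was at 28.3, 46.0 and 31.6 in untreated Hdac3f/f and 5128, 526 and 2089.5 in untreated Lyz2-Cre libraries, and Col4a2 at 58.0, 50.0 and 27.2 and 467, 788 and 1901. Sparc was at 160.5, 141 and 132 and 332, 579 and 1273 in the same groups. Pdgfrb was at 51.6, 41.3 and 34.0 in LPS-treated Hdac3f/f and 722, 1113 and 879 in LPS-treated Lyz2-Cre libraries. These ratios share the collagen I count as denominator and were not tested.

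**Figure D4:**
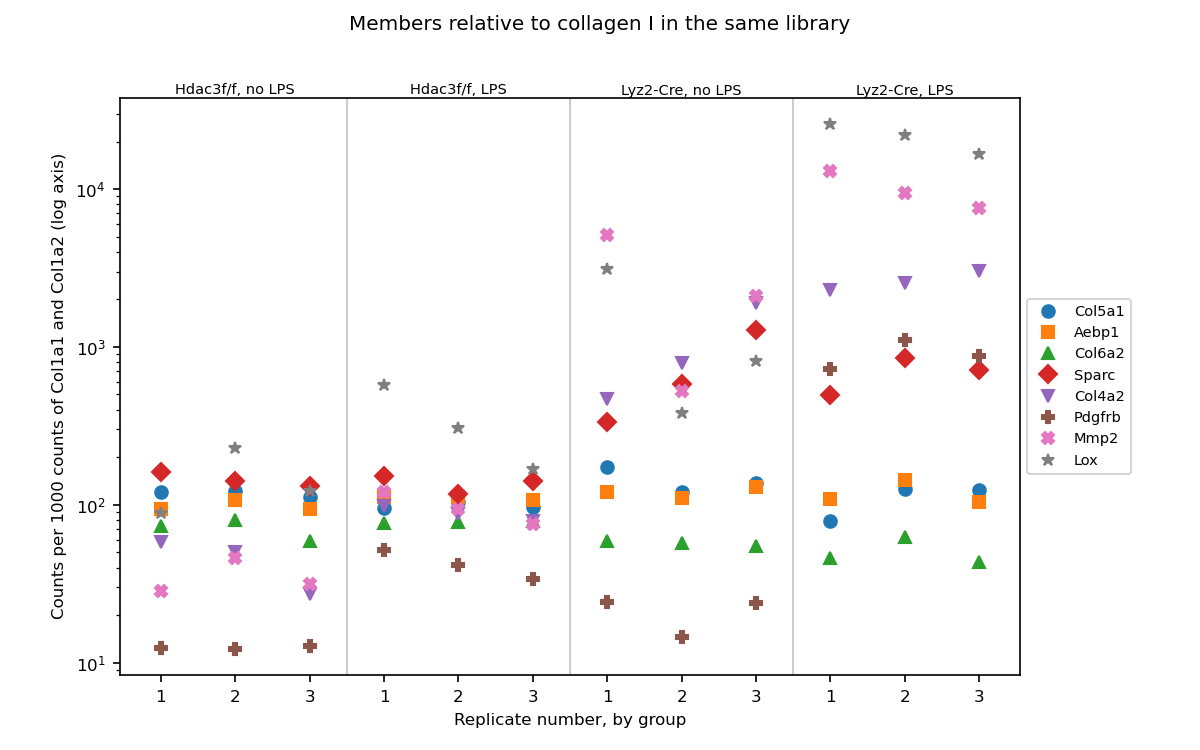
Counts of 8 genes per 1000 counts of Col1a1 and Col1a2 in the same library, on a log axis, by group and replicate number. Aebp1, Col5a1 and Col6a2 stay within 43.2 to 173 in all 12 libraries, and Lox reaches 25911 in LPS-treated Lyz2-Cre library 1.

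Levels per gene length, as mean CPM per kilobase of the deposited gene length, put the genes in a different order in the groups. In untreated Hdac3f/f cells Col1a1 led at 65.4, followed by Sparc at 24.8, Timp1 at 21.5 and Acta2 at 20.5. In LPS-treated Lyz2-Cre cells Lox led at 85.9, then Mmp2 at 56.8 and, far below, Col4a2 at 7.76, with Col1a1 at 2.09. Lox and Mmp2 were thus the leading transcripts of the 41 there, in place of collagen I.

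Stromal markers outside the 41 did not all move one way. Prrx1 and Cdh11, picked after their values were seen, were low in Lyz2-Cre cells. Prrx1 was at 16.7, 1.95 and 3.07 CPM in untreated and 8.20, 9.28 and 12.2 CPM in LPS-treated Hdac3f/f libraries, against 0.243, 1.38 and 0.298 CPM in untreated and 0.302, 0.116 and 0.125 CPM in LPS-treated Lyz2-Cre libraries. Prrx1 encodes a mesenchymal transcription factor. Cdh11 was at 7.33, 1.12 and 1.07 CPM in untreated and 11.3, 7.02 and 15.2 CPM in LPS-treated Hdac3f/f libraries, against 0.243, 0.801 and 0.398 CPM in untreated and 0.241, 0.173 and 0.188 CPM in LPS-treated Lyz2-Cre libraries. Cdh11 encodes a cadherin of mesenchymal cells. Over the 26 stromal and fibroblast markers listed, 8 of them among the 41 genes, the sum was 2419, 1276 and 1578 CPM and 1621, 2132 and 2988 CPM in Hdac3f/f and 964, 1071 and 1173 CPM and 664, 800.2 and 1005 CPM in Lyz2-Cre libraries, without and with LPS. The 18 markers outside the 41 summed to 1041, 991 and 1129 CPM and 801, 983 and 1307 CPM in Hdac3f/f and 948, 939.7 and 1132 CPM and 630.2, 757 and 962 CPM in Lyz2-Cre libraries, so the untreated genotypes overlapped, and Tcf21 was at 0 throughout. Most of that sum came from Gas6, which was lower in every Lyz2-Cre library of either treatment, and from Ly6a, which was higher in every untreated Lyz2-Cre library (612, 568 and 739 against 407, 318 and 343 CPM). Thy1 with LPS was at 20.1, 17.2 and 31.4 CPM in Lyz2-Cre and 9.24, 16.4 and 24.7 CPM in Hdac3f/f libraries. Without Gas6, Ly6a, Pdpn and Thy1, a choice made after their values were seen, the sum was 66.0, 17.8 and 17.0 CPM, 47.9, 37.4 and 68.1 CPM, 4.32, 11.5 and 6.17 CPM and 3.80, 4.22 and 2.95 CPM in untreated and LPS-treated Hdac3f/f and untreated and LPS-treated Lyz2-Cre libraries. The part that these cells have in the levels of the 41 genes was not tested.

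**Figure D5:**
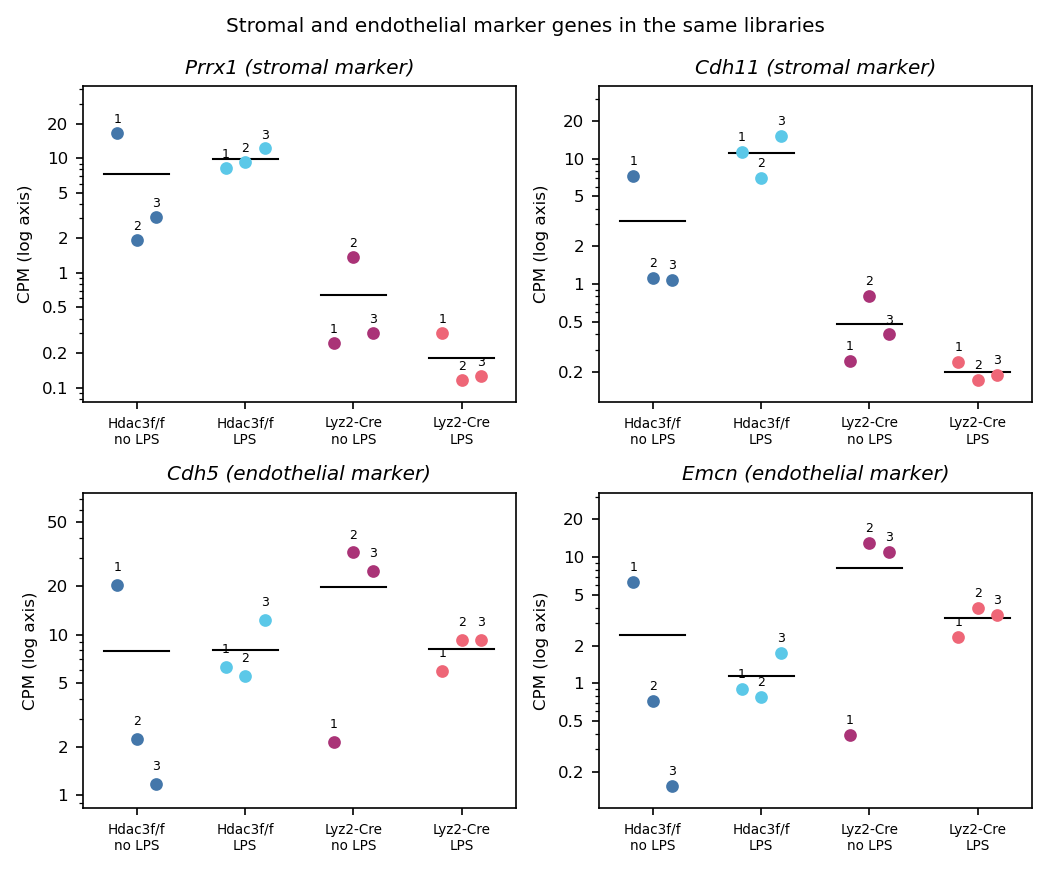
CPM on a log axis for 2 stromal markers (Prrx1, Cdh11) and 2 endothelial markers (Cdh5, Emcn) in each library, with the arithmetic mean of each group as a line and the replicate number beside each point. Prrx1 and Cdh11 are lower in every Lyz2-Cre than in every Hdac3f/f library, and Cdh5 and Emcn are highest in untreated Lyz2-Cre libraries 2 and 3.

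Other cell types were checked by their marker lists. Smooth muscle and pericyte markers (10 genes, Acta2 among them) summed to 100.4, 23.0 and 33.5 CPM and 49.3, 66.6 and 74.4 CPM in Hdac3f/f and 8.26, 22.0 and 13.4 CPM and 8.63, 8.44 and 10.7 CPM in Lyz2-Cre libraries, without and with LPS. Most of this was Acta2: without it the sums were 30.4, 7.15 and 9.66 CPM and 11.7, 17.0 and 18.4 CPM against 4.32, 13.0 and 9.75 CPM and 3.86, 4.57 and 7.09 CPM, which overlapped between untreated genotypes and were lower in every Lyz2-Cre library with LPS. Osteoblast markers (10 genes, 1 at 0 throughout) were low, with sums between 3.55 and 24.6 CPM. Of 7 adipocyte markers 3 were at 0 in every library, and the list summed to 1001, 1211 and 1105 CPM and 721, 570.5 and 558 CPM in Hdac3f/f and 594, 659 and 496 CPM and 428, 475 and 453 CPM in Lyz2-Cre libraries, lower in every Lyz2-Cre library, with most of it from Lpl, a lipase that macrophages also make, and Fabp4. Dendritic cell markers (7 genes) summed to 31.3, 36.2 and 31.8 CPM and 70.5, 72.4 and 77.2 CPM in Hdac3f/f and 108, 109 and 85.2 CPM and 480.2, 488 and 469.8 CPM in Lyz2-Cre libraries, higher in every Lyz2-Cre library. Most of this was Itgax, except in LPS-treated Hdac3f/f libraries 2 and 3, where Itgax was at 33.4 and 37.0 CPM. Erythroid and platelet markers (7 genes), mostly Pf4, summed to 368, 227 and 238 CPM and 337, 521 and 527 CPM against 849, 478 and 383 CPM and 607, 602 and 692 CPM, higher in every Lyz2-Cre library too. Neutrophil markers (10 genes) summed to 409.5, 233 and 281 CPM and 143, 167 and 318 CPM in Hdac3f/f libraries, without and with LPS. In Lyz2-Cre libraries they summed to 128, 209 and 183 CPM and 204, 151 and 423 CPM, all lower without LPS and overlapping with it. Lymphocyte markers (10 genes) summed to between 8.62 and 27.3 CPM in all 12 libraries. Mast cell and basophil markers (8 genes) summed to at most 152 CPM, higher in every untreated Lyz2-Cre library. The part of these cell types in the levels of the 41 genes was not tested.

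Genes that work with collagens but are not among the 41 were followed in 4 lists. These lists too were chosen with earlier results of these libraries known. Their counts and adjusted p-values between genotypes and for the interaction are thus no independent support for a genotype difference. Of 27 tested genes for collagen synthesis and processing, 10 rose and 5 fell with LPS in Hdac3f/f cells by edgeR, where 28.0% and 32.1% of all tested genes were called higher and lower. They were led by Mmp14 (2.98 ± 0.13, adjusted p = 7.85e-10), a membrane protease that activates Mmp2, and Plod3 (1.50 ± 0.14, adjusted p = 7.90e-07), a lysyl hydroxylase. In Lyz2-Cre cells 8 rose and 7 fell with LPS (25.2% and 27.7% of all tested genes), among them Mmp14 (2.06 ± 0.12, adjusted p = 2.25e-08) and Loxl3 (-3.02 ± 0.27, adjusted p = 8.15e-07), a further lysyl oxidase. Loxl3 was at 93.8, 68.4 and 65.0 CPM in untreated Hdac3f/f and 101, 80.2 and 49.0 CPM in untreated Lyz2-Cre libraries, which overlapped. Between genotypes with LPS 18 were lower and 1 higher in Lyz2-Cre cells (16.9% and 15.7% of all tested genes), with Creb3l1 (-2.42 ± 0.26, adjusted p = 0.000106), a transcription factor of collagen production, and Adamts2 (-5.80 ± 0.76, adjusted p = 0.00031), which trims procollagen, among the lower. The interaction called 5 of them lower (5.54% of all tested genes), with Loxl3 (-2.18 ± 0.35, adjusted p = 0.00365) first, and none higher by edgeR, where 1 was higher at an unadjusted p under 0.05 and none by DESeq2.

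The same limit holds for the other 3 of the 4 lists. Of 30 tested other matrix proteins, 18 were lower and 1 higher in Lyz2-Cre cells with LPS and 12 lower and 2 higher without it (edgeR). Of all tested genes 16.9% and 15.7% were called lower and higher with LPS and 6.66% and 5.12% without it. The first by adjusted p with LPS was Ltbp2 (-3.30 ± 0.33, adjusted p = 7.32e-05), a latent TGF-β binding protein. Thbs1, which encodes thrombospondin 1, was higher in Lyz2-Cre cells without LPS (2.35 ± 0.38, adjusted p = 0.00256) and was the 1 higher with LPS (1.45 ± 0.37, adjusted p = 0.0106). Of 11 tested other collagens, 5 were lower and 1 higher in Lyz2-Cre cells with LPS against the same shares of all tested genes, led by Col2a1 (-5.85 ± 0.77, adjusted p = 0.00031), the collagen of cartilage. Of 21 tested genes of TGF-β and PDGF signalling, 11 were lower in Lyz2-Cre cells with LPS (16.9% of all tested genes), Pdgfb (-1.44 ± 0.14, adjusted p = 5.76e-05), the ligand of Pdgfrb, first. None of these 21 was higher by edgeR, by DESeq2 or at an unadjusted p under 0.05. Tgfbr2, a TGF-β receptor, fell with LPS by 1.94 and 1.91 on the log2 scale in Hdac3f/f and Lyz2-Cre cells (adjusted p = 1.78e-09 and 3.33e-09, edgeR). Over the 4 lists together, 25 genes were lower in Lyz2-Cre cells without LPS, but 12 without untreated Lyz2-Cre library 1 and 9 without library 3 of that group. The 30 that rose with LPS in Hdac3f/f cells were 47, and the 7 with a lower response in Lyz2-Cre cells were 19, without untreated Hdac3f/f library 1. The latter count was 4 without untreated Hdac3f/f library 2, treated Hdac3f/f library 3, untreated Lyz2-Cre library 3 or treated Lyz2-Cre library 1 or 2.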

How the data were processed

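Read counts per gene were analysed for 12 macrophage libraries, 3 in each of 4 groups by genotype and LPS treatment. The authors aligned reads with TopHat2 to mm10, per the submitters' processing notes, which give no versions; the counting tool and annotation are not given in the sources used here. Per the file headers, the deposited table holds counts and FPKM per library, the authors' group means of normalized counts (a signal), and their log2 ratios with raw and adjusted p-values. Of these only the counts and gene lengths were used. The members and gene lists were chosen with earlier results of these data known.

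The filterByExpr function (edgeR 4.0.16, R 4.3.3) left 14286 of 54532 genes and 40 of the 41 members, and libraries were scaled by TMM. A quasi-likelihood model with 1 coefficient per group was fitted to all genes and libraries (glmQLFit, glmQLFTest), and a gene was called at a Benjamini-Hochberg adjusted p under 0.05 taken over the whole set. Log2 fold changes carry their SE. On simulated counts for LPS-treated Lyz2-Cre against Hdac3f/f libraries, 92.5% of 200 genes changed 4-fold were recovered among 13257 tested, with 18 false calls. Values per library are given for members with a mean of at least 5 CPM in a group, for members called in the genotype difference with LPS or the interaction, and for 12 members always, and here for the others too. Of the other lists, up to 4 called genes per comparison were eligible by adjusted p, if the higher group had 1 CPM or more. Alternatives were DESeq2 (1.42.0), other scalings and filters, a replicate block, the 2 groups alone, and leaving out libraries. Replicate numbers gave no sign of pairing, and the main model did not pair libraries. A ratio with 1 to 3 counts in a group has an exact 95% interval. It pools the libraries of a group, covers counting error only and is no test between genotypes. Promoters were matched by symbol to RefSeq (GRCm38.p6).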

Additional observations from a re-analysis of the deposited data

Results flagged for a closer look

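The LPS response of Ssc5d, a soluble scavenger receptor protein, differed between the genotypes by the interaction test. That test combines differences between genotypes that were in view when the list was drawn up, so it gives no independent support. The response in Lyz2-Cre cells minus that in Hdac3f/f cells was -3.45 on the log2 scale (SE 0.98, adjusted p = 0.0489, edgeR). Ssc5d lay higher in every LPS-treated than in every untreated Hdac3f/f library, while LPS-treated Lyz2-Cre libraries held 0, 0 and 3 counts, so the fitted value depends on the prior count and on few counts. The call was lost with library totals, with the replicate block and without any 1 of 9 libraries, with adjusted p-values between 0.0570 and 0.128 in those settings, and 0.488 without untreated Lyz2-Cre libraries 1 and 2 together.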

How the results depend on the processing

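The fold changes followed under the alternatives were the called ones of members, some uncalled ones and those of named genes of the other lists. Not all of them are printed above. Of their values, 2321 kept their direction and side of the threshold, 139 fell below it, 58 passed it and 9 changed sign. Leaving out 1 library, the LPS response in Lyz2-Cre cells ran from -0.67 to 0.098 for Acta2, -0.86 to 0.23 for Timp1 and -0.40 to 0.94 for Sod3, and the Col5a3 interaction from -2.33 to 0.037. Each passed 0 without untreated Lyz2-Cre library 2, and Sod3 also without treated library 1 (0.087). Acta2 (0.18), Sod3 (0.88) and the Col5a3 interaction (0.12) did so without untreated Lyz2-Cre libraries 1 and 2, and Sparc between genotypes without LPS did so without both libraries 1 (0.32). Over all 200 fold changes of members, printed or not, 55 of 4142 values changed sign, and none of these was called in either fit. Leaving out both libraries that stand apart, or untreated Lyz2-Cre libraries 1 and 2, was added after the data were seen. With library totals the median log2 fold change of all tested genes was -0.72 for LPS in Hdac3f/f cells (main value -0.08), -0.46 in Lyz2-Cre cells (-0.08) and 0.29 between genotypes with LPS (0.02). Without a low-count filter many more genes were called; the cause was not tested, here and for the other settings below.

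Members called higher with LPS in Hdac3f/f cells numbered 10, and 6 with library totals, 28 with no filter and 38 without untreated Hdac3f/f and Lyz2-Cre libraries 1, with a range of 7 to 35 when leaving out 1 library. In Lyz2-Cre cells 3 were higher (3 to 5 leaving out 1 library) and 1 lower, the latter 9 with library totals, 21 with no filter, 6 with DESeq2, 5 with the 2 groups alone, 23 without both libraries 1, 0 without untreated Lyz2-Cre libraries 1 and 2, and 0 to 13 leaving out 1. Between genotypes without LPS 31 members were lower (17 to 33 leaving out 1 library, 5 without untreated Lyz2-Cre libraries 1 and 2) and 1 higher (3 without both libraries 1, 0 without untreated Lyz2-Cre libraries 1 and 2). With LPS 36 were lower (34 to 36) and 1 higher (0 to 1). The interaction called 0 higher, and 1 with library totals, DESeq2 or the replicate block, 2 with no filter and 0 to 1 leaving out 1 library. It called 1 lower, and 0 with library totals, the replicate block or without untreated Lyz2-Cre libraries 1 and 2, 26 with no filter, 3 with DESeq2, 32 without both libraries 1 and 0 to 22 leaving out 1.

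For the 4 other lists together, genes higher with LPS in Hdac3f/f cells numbered 30, and 16 with library totals, 56 without both libraries 1 and 24 to 47 leaving out 1, and genes lower numbered 11, and 20 with library totals. In Lyz2-Cre cells 20 were lower, and 37 with no filter or without both libraries 1 and 9 without untreated Lyz2-Cre libraries 1 and 2. Between genotypes without LPS 4 were higher (12 without both libraries 1, 1 without untreated Lyz2-Cre libraries 1 and 2, 1 to 7 leaving out 1), and 25 were lower (39 with no filter, 15 with the 2 groups alone, 14 without both libraries 1, 4 without untreated Lyz2-Cre libraries 1 and 2, 9 to 29 leaving out 1). With LPS 3 were higher (8 with library totals, 1 to 4 leaving out 1). The interaction called 0 higher (3 with library totals) and 7 lower (26 with no filter, 14 with DESeq2, 29 without both libraries 1, 1 without untreated Lyz2-Cre libraries 1 and 2, 4 to 19 leaving out 1).

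Replicate numbers gave no sign of pairing: deviations from group means correlated at -0.40 to 0.22 between libraries with the same number (over 0.1 in 5 of 18 pairs) and at -0.36 to 0.42 between others (9 of 36). With the replicate block the other counts stayed within 1.5 times the values above. Groups of 3 libraries and few counts in Lyz2-Cre cells limit the precision, and counts of calls move with library 1 of each untreated group.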
